A study of Mus musculus with 24 samples.

Results

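The striated muscle microRNAs were followed in the lungs of mice from birth to young adulthood. They are mmu-miR-1, mmu-miR-133a, mmu-miR-133b, mmu-miR-206, mmu-miR-208a, mmu-miR-208b and mmu-miR-499, written below without the prefix for mouse, and were found as the 7 array names equal to these, of 650 names on the array. Of the 7, 4 passed the filter for testing (miR-1, miR-133a, miR-133b and miR-208b), of 322 miRNAs tested in all. The other 3 were not detected on most arrays and are described by their values. Total RNA from whole lung of healthy C57BL/6 mice was hybridised to 24 Agilent 1-colour miRNA arrays, 1 array per biological replicate. There were 5 arrays each for days 1, 4, 7 and 14 after birth, and 4 for day 42, which the labels give as 6 weeks. All mice were of this wild-type strain, with no allele or agent named. The title given to the series names fetal lungs, but every label and the design text state postnatal ages, which were followed.

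MicroRNAs are short RNAs that pair with messenger RNAs and repress them, chiefly through the seed, which is bases 2 to 8 counted from the 5′ end. The 7 miRNAs described here are known from muscle. Of these, miR-1 and miR-133a are made together from shared transcripts in heart and skeletal muscle, miR-206 and miR-133b lie close together and are known from skeletal muscle, and miR-208a, miR-208b and miR-499 sit in introns of myosin heavy chain genes. In the mouse, Myh6 carries miR-208a and encodes the fast alpha myosin of the adult heart, while Myh7 carries miR-208b and encodes the beta myosin of the fetal ventricle and of slow skeletal muscle. In the mouse the pulmonary veins carry a sleeve of heart muscle into the lung, and the heart, the diaphragm and the oesophagus lie beside it.

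The mature sequences show which of the matched members share a seed and which could share signal. RefSeq sequences on GRCm38.p6 were matched for 5 of the 7 members, but not for miR-1 and miR-133a. They are printed 5′ to 3′ with the seed in capitals, and each position is that of the mature miRNA.
miR-206, chr1:20679055-20679076, plus strand, within Lincmd1: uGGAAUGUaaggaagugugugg
miR-133b, chr1:20682834-20682855, plus strand, within Lincmd1: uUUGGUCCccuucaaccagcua
miR-208a, chr14:54949072-54949093, minus strand, within Myh6: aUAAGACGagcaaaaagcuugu
miR-208b, chr14:54975710-54975731, minus strand, within Myh7 and Gm31251: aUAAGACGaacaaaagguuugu
miR-499, chr2:155622893-155622913, plus strand, within Myh7b: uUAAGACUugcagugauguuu
The sequences of miR-208a and miR-208b differed at 3 of 22 bases (G10A, A16G and C18U, from miR-208a to miR-208b, counted from the 5′ end) and had the same seed. The seed of miR-499 differed from theirs at 1 of 7 bases (G8U, from miR-208b to miR-499). The seeds of miR-206 and miR-133b were each held by that miRNA alone among the 5. Whether miR-1 or miR-133a holds the seed of either cannot be read from these sequences. Only 3758 bases lie between miR-206 and miR-133b, and 26617 bases between miR-208a and miR-208b. Because miR-208a and miR-208b are so alike, their probes may each take up some of the other's signal.

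Values are scaled signals. The background-subtracted spot signals of each miRNA were summed over its probes and divided by the array's own level, taken as the 75th percentile over those 228 miRNAs that every array detected. Values under a floor of 7.24 (2.86 on the log2 scale) were raised to it before log2 was taken, and detection is the flag deposited with each array. Signals of different probes cannot be set against each other, so that levels are compared between arrays within a miRNA only. An array detected 266 to 348 miRNAs, and its 75th percentile before scaling ran from 923 to 4954 intensity units. Under 0.5 of the median brightness lay 2 arrays, day 1 replicates 4 and 5, called the dim arrays here. The tissue label was checked against defining miRNAs. The endothelial miR-126-3p and the epithelial miR-200a, miR-200b, miR-200c, miR-141 and miR-429 were detected on 24 of 24 arrays, as was the smooth muscle miR-143. Of the nervous system list, miR-124 was detected on 0 arrays, miR-9 on 2, miR-9* on 1 and miR-219 on 21. In whole lung, fewer muscle cells and less of a miRNA per muscle cell cannot be told apart.

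The array of day 1 replicate 2 stood apart from all others in these miRNAs. On that array miR-1 reached a scaled signal of 16995, against 56.1 to 1048 on the other 4 day 1 arrays and at most 2817 on any array of a later age. Its miR-133b was at 11223, against 131 to 651 on the other day 1 arrays. Its miR-133a was at 7845, against 95.9 to 449. These 3 miRNAs stood far above every other array of the series. The miRNAs of the myosin introns stood out with them. On day 1 replicate 2 miR-208b was at 1111, against 14.6 to 67.0 on the other day 1 arrays. The signal of miR-499 was 583 there and at most 21.8 elsewhere. For miR-208a it was 145, and at most 10.5 elsewhere. In contrast miR-206, which is known from skeletal muscle and not from heart, was at 10.3 on that array and was not detected.

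Set against the mean of the other 4 day 1 arrays on the log2 scale, the 6 detected members and the minor arm of miR-133a took the first 7 ranks of all 650 names on day 1 replicate 2. They lay at 6.37 for miR-1, 5.93 for miR-499, 5.46 for miR-133b, 5.46 for miR-133a, 5.40 for the arm miR-133a*, 4.99 for miR-208b and 4.19 for miR-208a. The next names were miR-144, an erythroid miRNA, at 3.19, miR-122, the miRNA of hepatocytes, at 3.13, and miR-32 at 2.70. Of these, miR-144 and miR-32 had a higher signal on another day 1 array, and miR-122 did not. For the tested miRNAs the median absolute difference of this array from the mean of the others was 0.41, and for the day 1 array with the largest such difference, replicate 4, it was 0.58. In the authors' deposited table, miR-1 and miR-499 also held ranks 1 and 2 on this array, and the 6 members held ranks 1 to 7. Both probes of each of the 6 members showed the rise, with the smallest at 3.62 for a probe of miR-208a and the largest at 6.54 for a probe of miR-1.

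**Figure D1:**
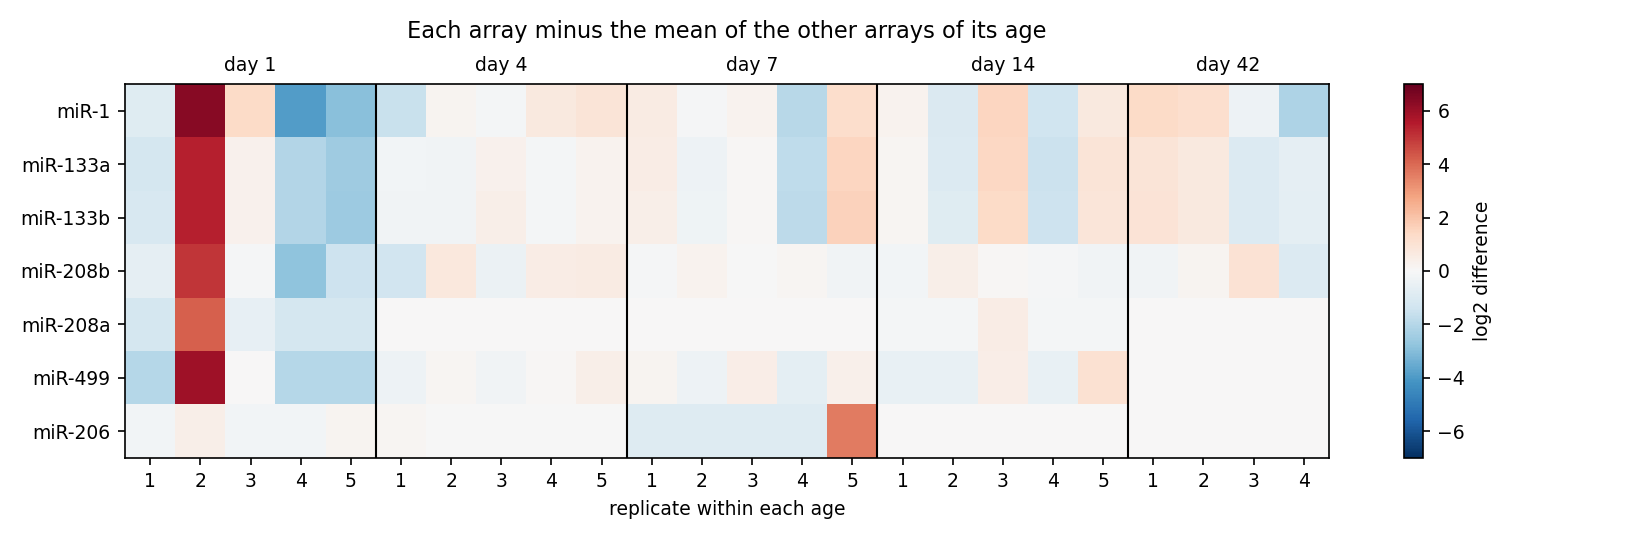
Each array minus the mean of the other arrays of its age, as a log2 difference in scaled signal (colour scale from -7 to 7), for the 7 miRNAs (rows) on the 24 arrays (columns, grouped by age and numbered by replicate). Day 1 replicate 2 was red in 6 of the 7 rows, from 4.19 to 6.37, and day 7 replicate 5 was high for miR-206, at 3.63.

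Markers of other tissues on day 1 replicate 2 were as follows. The 3 measured smooth muscle miRNAs had a median of 0.29 against the other day 1 arrays, with 2 of 3 above 0. The 3 red blood cell miRNAs had a median of 0.80, with 3 of 3 above 0, and the 4 leukocyte miRNAs a median of 0.37, with 2 of 4 above 0. The 6 lung epithelial miRNAs had a median of -0.22, with 3 of 6 above 0, the 2 endothelial arms a median of 0.17, and both squamous epithelial miRNAs, miR-203 and miR-205, lay below 0. Of the 4 nervous system miRNAs miR-219 was detected there, at 1.65 above the other day 1 arrays, and the other 3 were not detected. The single liver marker miR-122 had a signal of 123 there, against 3.12 to 51.7 on the other day 1 arrays, and was detected on 8 of 24 arrays in all, with its highest value, 789, on day 7 replicate 2. What part any of these tissues has in the muscle values was not tested.

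A second array stood apart in another way. The skeletal muscle miRNA miR-206 was detected on day 7 replicate 5 and on no other of the 24 arrays. Its scaled signal was 89.7 there, against 0.107 to 5.38 on the other day 7 arrays and at most 10.3 on the rest. All 20 of its spots lay well above background on that array, and at most 1 of 20 did on any other. On this array miR-206 ranked first of the 650 names, at 3.63 above the mean of the other day 7 arrays on the log2 scale. It was followed by miR-133b at 1.61, miR-133a* at 1.55, miR-133a at 1.51 and miR-1 at 1.26.

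The miRNAs of the myosin introns did not stand out on day 7 replicate 5. There miR-208b had a signal of 48.9, the lowest of the day 7 arrays, against 52.5 to 64.2 on the other 4. Neither miR-208a nor miR-499 was detected on it. The sixth name by rank was miR-205, a miRNA of stratified epithelia, at 1.15, with a signal of 77.0 against 32.6 to 37.5 on the other day 7 arrays. Of the marker lists the squamous epithelial pair had a median of 0.61, with 2 of 2 above 0, and the smooth muscle list 0.31, with 3 of 3 above 0. The red blood cell list had 0.15 (2 of 3 above 0), the lung epithelial list 0.09 (5 of 6), the endothelial list 0.13 (1 of 2) and the leukocyte list -0.20 (2 of 4). Of the nervous system list miR-219 was at -0.32 and the others were not detected, and liver miR-122 was not detected either. Their part in the miR-206 value was not tested.

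**Figure D2:**
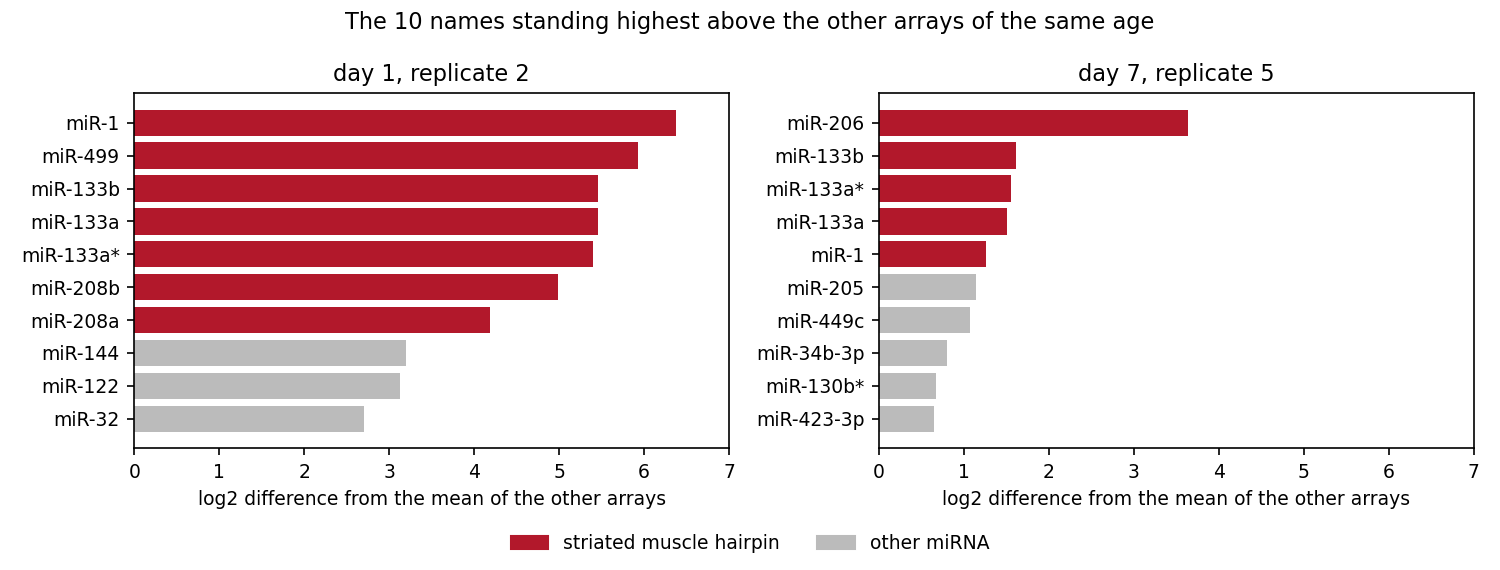
The names that stood highest above the mean of the other arrays of their age on day 1 replicate 2 (left) and day 7 replicate 5 (right), as log2 differences in scaled signal, with the muscle miRNAs and their arm in a second colour. On day 1 replicate 2 miR-1 led with 6.37 and miR-206 was not among the names shown, and on day 7 replicate 5 miR-206 led with 3.63.

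Over the 5 ages miR-1, known from heart and skeletal muscle alike, was detected on all 24 arrays. Its scaled signal was 307, 16995, 1048, 56.1 and 98.4 on the day 1 arrays and 158, 415, 346, 547 and 619 on the day 4 arrays. It was 859, 586, 705, 210 and 1247 at day 7, 1381, 682, 2817, 563 and 1759 at day 14, and 1809, 1660, 756 and 290 at day 42. Apart from day 1 replicate 2, the highest arrays were at day 14 and day 42 and the lowest at day 1 and day 4, and the arrays of consecutive ages overlapped. On the log2 scale the means were 8.96 ± 3.28 at day 1, 8.56 ± 0.78 on the day 4 arrays, 9.28 ± 0.97 at day 7, 10.24 ± 0.96 at day 14 (SD, n = 5 each) and 9.82 ± 1.23 at day 42 (SD, n = 4). In the order of these means, from day 4 through day 1, day 7 and day 42 to day 14, no neighbours differed by more than their SDs.

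Its partner miR-133a, made from the same transcripts, was also detected on every array. The day 1 arrays gave 192, 7845, 449, 123 and 95.9, the day 4 arrays 222, 213, 292, 228 and 280, and the day 7 arrays 377, 233, 302, 108 and 660. At day 14 it was at 565, 308, 1168, 231 and 854, and at day 42 at 773, 688, 294 and 355. Day 4 was the age with the closest arrays, with an SD of 0.21 on the log2 scale, against 0.96 at day 7 and 0.98 at day 14. The minor arm miR-133a* was detected on 14 of 24 arrays, on 2 of 5 at day 1, 1 of 5 at day 4, 4 of 5 at day 7, 4 of 5 at day 14 and 3 of 4 at day 42. Its highest signal, 425, was on day 1 replicate 2 and its next highest, 45.8, on day 14 replicate 3. The arm was detected at 8.31 on day 14 replicate 4 and not at 12.2 on day 4 replicate 5. The 75th percentiles of these arrays before scaling were 3628 and 2330. Counts of detection thus cannot be read as levels, and the part of brightness in them was not tested.

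Like its neighbour miR-206, miR-133b is known from skeletal muscle, but on day 1 replicate 2, its highest array, miR-206 was not detected. The signal of miR-133b was 288, 11223, 651, 172 and 131 at day 1, 308, 309, 446, 331 and 404 at day 4, and 530, 358, 449, 155 and 1033 at day 7. At day 14 its signal was 862, 496, 1705, 357 and 1287, and at day 42 it was 1255, 1109, 463 and 548. These values ran beside those of miR-133a array by array, and over the 24 arrays the log2 difference between them stayed between 0.45 and 0.70. The deviations of miR-133a and miR-133b from their age means had a Pearson correlation of 1.00 over the 24 arrays, which share scaling and brightness, and probes of such similar mature miRNAs may share signal, so that the pair cannot be read as separate measurements. The array day 7 replicate 5 was the highest of its age for both, as it was for miR-206.

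The beta myosin miRNA miR-208b was detected on 19 of 24 arrays and took another course. Its scaled signal was 48.6, 1111, 67.0, 14.6 and 31.3 at day 1, with the last 2, on the dim arrays, not detected. At day 4 it was 19.5 (not detected), 62.3, 32.6, 54.4 and 56.0, and at day 7 it was 52.5, 64.2, 54.7, 59.5 and 48.9. At day 14 it was 38.1, 52.6, 44.6, 40.1 and 37.2. At day 42 it was 13.1 (not detected), 16.2, 24.7 and 8.86 (not detected). The day 42 arrays were the lowest and overlapped with the lowest arrays of day 1 and day 4. The log2 means were 6.12 ± 2.38 at day 1, 5.37 ± 0.70 on the day 4 arrays, 5.80 ± 0.15 at day 7, 5.40 ± 0.20 at day 14 (SD, n = 5 each) and 3.87 ± 0.62 at day 42 (SD, n = 4). Ordered by mean, day 42 was lowest, then day 4, day 14, day 7 and day 1. Day 4 and day 14 differed by less than their SDs, the arrays of day 14 and day 7 overlapped, and day 7 and day 1 differed by less than the SD of day 1.

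The alpha myosin miRNA miR-208a was detected on 2 of 24 arrays, at 145 on day 1 replicate 2 and at 10.4 on day 14 replicate 3. On the other 22 arrays it was not above 10.5. The Myh7b miRNA miR-499 was detected on 3 arrays, at 583 on day 1 replicate 2, 21.8 on day 1 replicate 3 and 12.1 on day 14 replicate 3, and its highest signal among the 21 arrays on which it was not detected was 16.9. Both were detected on 0 of 4 arrays at day 42 and on 0 of 5 at day 4 and at day 7. With miR-206 on 1 array, none of these 3 was detected on every array of any age, and no age difference was tested for them.

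**Figure D3:**
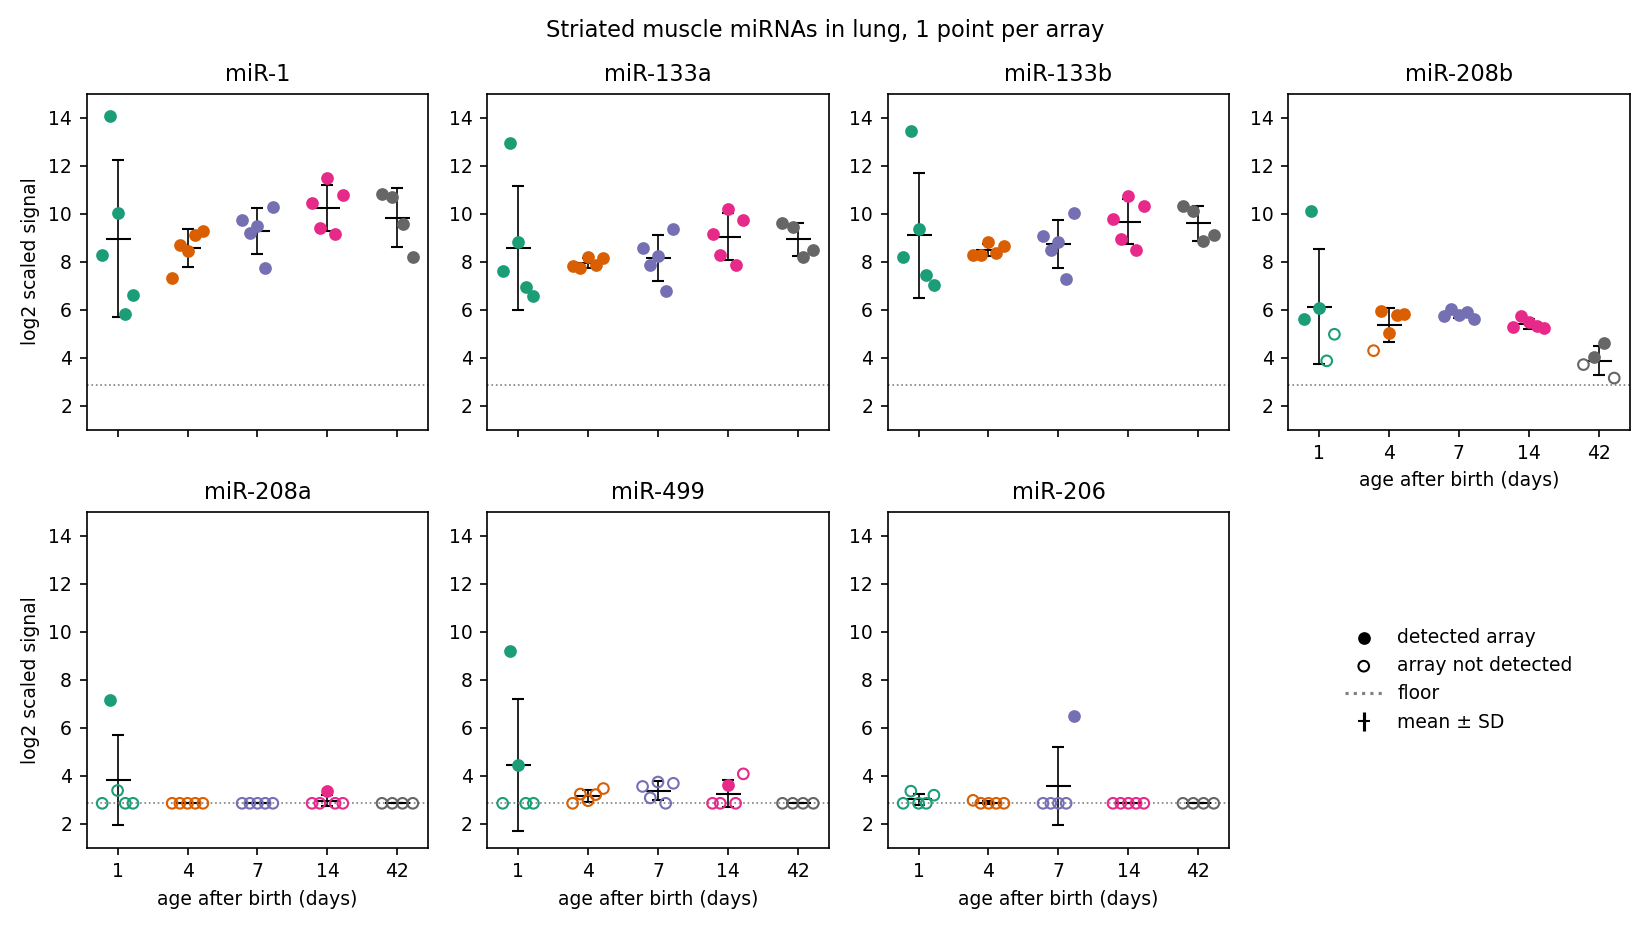
Log2 scaled signal of the 7 miRNAs on each array by age after birth in days, with filled points for detected arrays, open points for arrays on which the miRNA was not detected, bars for the mean ± SD and a dotted line at the floor of 2.86. A single day 1 point stands at 14.05 for miR-1, miR-208b lies lowest at day 42, and miR-206 rises from the floor on 1 day 7 array.

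Differences between ages were tested with limma over all 24 arrays, with Benjamini-Hochberg adjustment over the 322 tested miRNAs and a call at an adjusted p under 0.05. Between day 42 and day 1, the whole span of the series, miR-208b fell by 2.25 ± 0.73 (SE) on the log2 scale, or 4.76-fold, with an adjusted p of 0.0105. It was the 1 member called of 4, and 61.8% of all tested miRNAs were called in this comparison (18.9% higher and 42.9% lower). The others were at 0.86 ± 1.08 for miR-1 (adjusted p = 0.50), 0.35 ± 0.86 for miR-133a (adjusted p = 0.728) and 0.50 ± 0.86 for miR-133b (adjusted p = 0.621). The median of the 4 was 0.43, against -0.35 over all tested miRNAs.

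These values hung on day 1 replicate 2. Without it, miR-1 rose by 2.13 ± 0.77 (adjusted p = 0.0198), miR-133a by 1.44 ± 0.54 (adjusted p = 0.0234) and miR-133b by 1.60 ± 0.54 (adjusted p = 0.0146) between day 42 and day 1 by the same limma test. The fall of miR-208b was then -1.25 ± 0.39 (adjusted p = 0.00782), and 62.4% of all tested miRNAs were called. The calls of these rises were lost when the dim arrays were left out as well. With the 2 dim arrays and day 1 replicate 2 all left out, only replicates 1 and 3 remained of day 1. In this alternative, added after the values were seen, miR-1 was at 0.67 ± 0.80, miR-133a at 0.72 ± 0.63 and miR-133b at 0.83 ± 0.63. None of them was called, whereas miR-208b was at -1.96 ± 0.38 and called, and both outcomes rest on so few day 1 arrays. Without the dim arrays alone, the signs of the 3 turned, to -0.97, -0.85 and -0.73, and miR-208b was at -3.39, or 10.5-fold. With brightness as a covariate miR-208b was at -3.71, or 13.1-fold. The call for miR-208b was lost when arrays were scaled over all names (-1.59, adjusted p = 0.0595), by quantile normalization (-1.23, adjusted p = 0.22) or not at all (-1.28, adjusted p = 0.211), and in the authors' deposited table (-1.11, adjusted p = 0.232). These scalings also moved the median of all tested miRNAs, and relative to that median miR-208b lay at -1.90 in the main scaling and at -1.89, -1.42, -1.91 and -1.41 in these 4. With normexp background correction it was called at -2.06, and relative to the median at -0.87. With slide as a block miR-208b was at -2.61 (adjusted p = 0.00188), and within slides 1, 2 and 3 it was at -0.72, -5.95 and -2.37, where day 1 replicate 2 is the only day 1 array of slide 2.

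**Figure D4:**
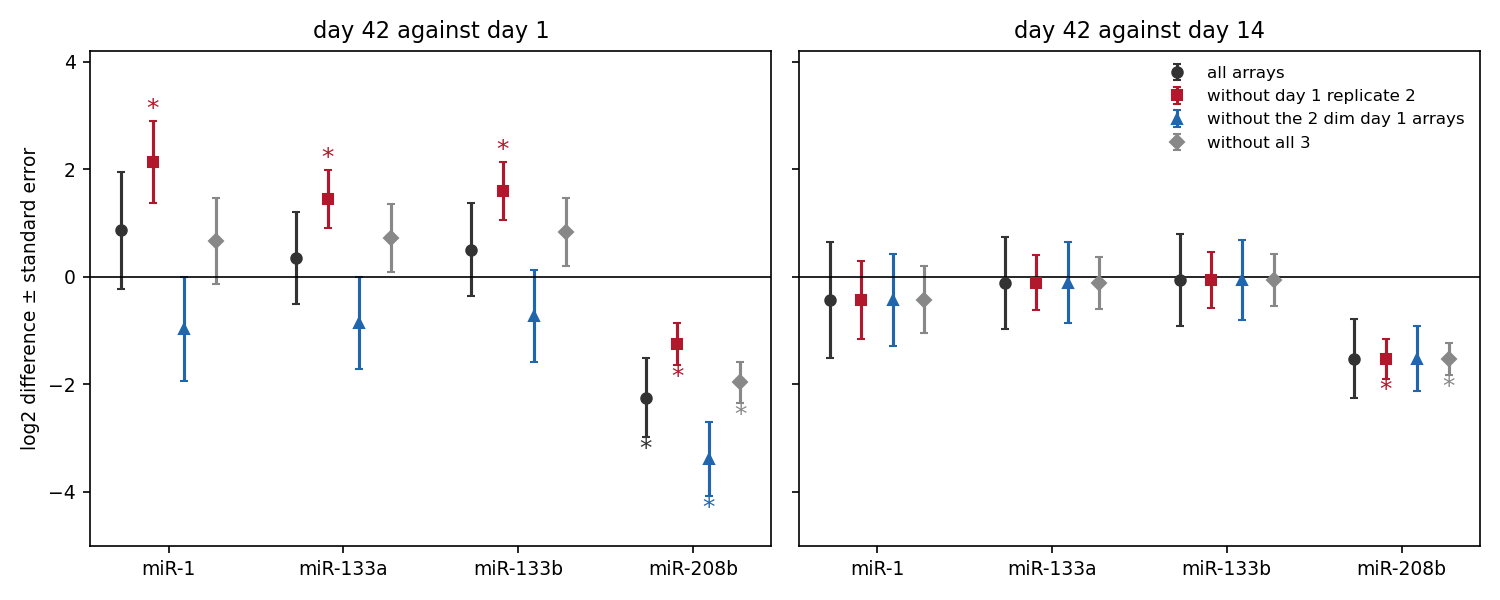
Log2 difference in scaled signal, with its standard error, of the 4 tested miRNAs for day 42 against day 1 (left) and day 42 against day 14 (right), over all arrays (black), without day 1 replicate 2 (red), without the 2 dim arrays (blue) and without all 3 (grey). Asterisks mark an adjusted p under 0.05, and in grey only replicates 1 and 3 of day 1 remain. On the left miR-208b had one in every colour, while miR-1, miR-133a and miR-133b had one in red alone, where they lay at 2.13, 1.44 and 1.60.

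Between day 42 and day 14, a step that does not involve the day 1 arrays, miR-208b was at -1.53 ± 0.73, with an adjusted p of 0.127 by limma and no overlap between the 4 day 42 and the 5 day 14 arrays. The filter passed miR-208b through day 7 and day 14, where all 5 arrays detected it, so that it entered this comparison through the age at which it is higher. Relative to the median of all tested miRNAs it lay at -1.36, and at -0.27 with normexp. Such lower values without overlap were found for 26.1% of all tested miRNAs, and 32.6% were called. Without day 1 replicate 2, which enters this comparison through the shared estimate of the spread, miR-208b was called at the same size, with an SE of 0.37 and an adjusted p of 0.00225, where 32.9% of all tested miRNAs were. With slide as a block it was called at -1.88 (adjusted p = 0.0340), and within slides 1, 2 and 3 it was at -1.28, -1.55 and -2.20. The other members were at -0.43 ± 1.08 for miR-1, -0.11 ± 0.86 for miR-133a and -0.06 ± 0.86 for miR-133b. None of the 4 passed the adjusted test with all arrays, and 1, miR-208b, had an unadjusted p under 0.05. The signs of the small differences of miR-133a and miR-133b turned with the scaling.

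In the 3 steps over the first 2 weeks limma called 0 of the 4 members, and 0 had an unadjusted p under 0.05. The share called among all tested miRNAs was 1.55% between day 4 and day 1, 0.311% between day 7 and day 4 and 31.4% between day 14 and day 7. For day 14 against day 7 the members lay at 0.96 ± 1.02 for miR-1, 0.88 ± 0.81 for miR-133a, 0.92 ± 0.81 for miR-133b and -0.40 ± 0.69 for miR-208b. For day 7 against day 4 they lay between 0.22 and 0.72, and for day 4 against day 1 between -0.75 and -0.39. Without day 1 replicate 2 all 4 differences between day 4 and day 1 turned positive, from 0.24 to 0.88. In the F-test over the 5 ages the adjusted p was 0.546 for miR-1, 0.644 for miR-133a, 0.582 for miR-133b and 0.0816 for miR-208b, and 65.5% of all tested miRNAs were called. Without day 1 replicate 2 all 4 were called, at adjusted p-values of 0.0252, 0.0409, 0.0258 and 0.00136 in the same order, where 69.6% of all were.

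The spread between arrays of one age was wide for the members. Pooled over the ages, the within-age SD of miR-1 was 1.74 on the log2 scale, the largest of the 322 tested miRNAs, whose median was 0.37. It was 1.38 for miR-133b (rank 4), 1.37 for miR-133a (rank 5) and 1.17 for miR-208b (rank 7). Without day 1 replicate 2 miR-1 still had an SD of 1.18 and rank 4, while miR-133b and miR-133a came to 0.83 and 0.82 (ranks 19 and 20) and miR-208b to 0.58 (rank 37). Other arrays than day 1 replicate 2 thus also differed in the members. On day 14 replicate 3, the brightest array of the series, miR-1 was 1.52, miR-133a 1.44 and miR-133b 1.36 above the mean of the other day 14 arrays, beside miR-122 at 1.39, miR-205 at 1.25 and miR-137 at 1.53.

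Among themselves, the deviations of miR-1 from its age means had a Pearson correlation of 0.94 with those of miR-133a and of miR-133b over 24 arrays, and of 0.86 with each over the 23 arrays without day 1 replicate 2. For miR-208b the correlation with miR-1 was 0.85 over 24 arrays and 0.60 over 23. With miR-133a it was 0.75 and 0.14, and with miR-133b 0.76 and 0.16. The tie of miR-208b to the miR-133 pair therefore lay in 1 array. These correlations are descriptions over arrays that share scaling and brightness, and no p is given. Outside the members, the tested miRNAs with the most similar deviations were miR-148a (0.85), miR-490 (0.81), miR-451 (0.79), miR-362-3p (0.79) and miR-144 (0.77) for miR-1. They were miR-490, miR-381, miR-378, miR-451 and miR-148a for both miR-133a (0.86 to 0.65) and miR-133b (0.87 to 0.66). For miR-208b they were miR-30e (0.81), miR-362-3p (0.81), miR-148a (0.79), miR-450a-5p (0.78) and miR-542-3p (0.76). Without day 1 replicate 2 miR-378 was at 0.27 with miR-133a and 0.26 with miR-133b, and miR-490 at 0.55 with miR-1, 0.62 with miR-133a and 0.64 with miR-133b. For miR-1 the others were then miR-148a (0.83), miR-144 (0.77), miR-451 (0.76) and miR-362-3p (0.74). For the miR-133 pair miR-381 was at 0.65, and miR-451 and miR-148a lay between 0.49 and 0.59. The values with miR-208b were then 0.94 for miR-30e, 0.93 for miR-450a-5p, 0.92 for miR-542-3p, 0.92 for miR-362-3p and 0.83 for miR-148a. All of these lay above its 0.60 with miR-1, but they were picked as the highest of all tested miRNAs outside the members. The contrast with miR-1 therefore follows largely from that choice.

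Within an array, miR-208b was lower relative to miR-1 at the later ages. The level of such a difference is set by the probes and only its change can be read. As a mean log2 difference, miR-208b minus miR-1 was -2.83 ± 1.09 at day 1, -3.19 ± 0.31 on the day 4 arrays, -3.48 ± 1.07 at day 7, -4.85 ± 1.04 at day 14 (SD, n = 5 each) and -5.94 ± 1.12 at day 42 (SD, n = 4). The day 42 arrays ran from -7.11 to -4.94 and the day 1 arrays from -3.97 to -1.65, with no overlap, and day 1 replicate 2, at -3.94, lay inside the range of its age. In this difference the nearest array of that age was replicate 3, at -3.97, while replicate 1 was at -2.66 and the dim arrays were higher still. This difference was given no test, since it was chosen after the values were seen, and 5 of the miR-208b values behind it were not detected. How many other tested miRNAs separate day 42 from day 1 in this way, alone or against miR-1, was not counted. Between these ages 61.8% of all tested miRNAs were called by limma, 42.9% lower, so that the separation cannot be called particular to miR-208b. The 2 dim arrays gave the highest values of day 1, at -1.95 and -1.65.

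**Figure D5:**
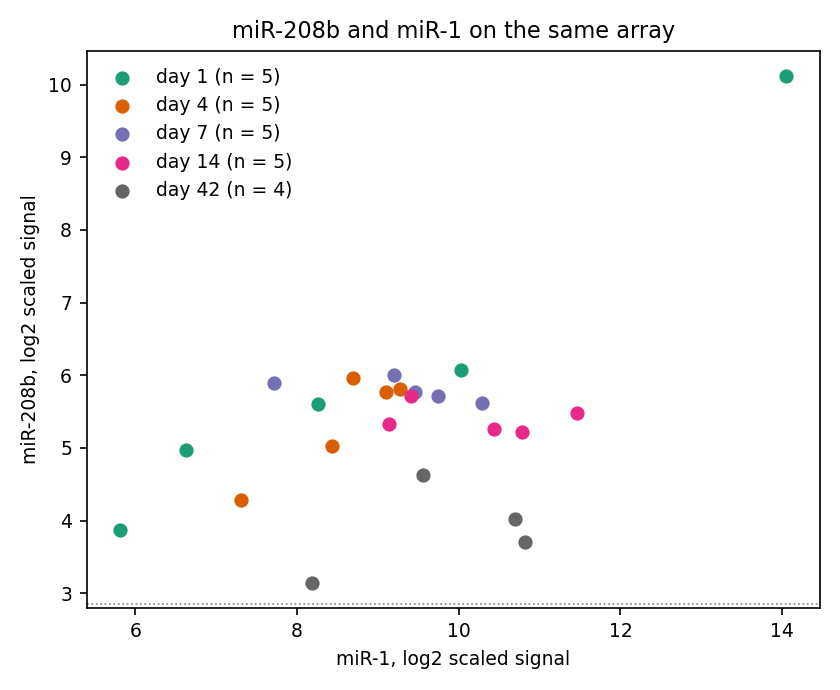
Log2 scaled signal of miR-208b (vertical axis) against miR-1 (horizontal axis) on each of the 24 arrays, coloured by age, with the floor as a dotted line. Day 1 replicate 2 lies alone at the upper right, at 14.05 for miR-1, and the 4 day 42 arrays lie between 3.15 and 4.63 for miR-208b.

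The ratio of miR-133a to miR-1 differed with brightness. The log2 difference miR-133a minus miR-1 was between -1.36 and -0.92 on 18 of the 24 arrays. It was 1.13 and -0.04 on the dim arrays of day 1, 0.50 and -0.25 on day 4 replicates 1 and 3, 0.29 on day 42 replicate 4 and -0.68 on day 1 replicate 1. These 6 arrays had 75th percentiles before scaling of 923 to 1727, and every other array lay at 1917 or above. The miR-1 signal of these arrays was between 56.1 and 346. The part of brightness in these values was not tested. The difference miR-133b minus miR-133a had its 3 lowest values, 0.45, 0.47 and 0.48, on the 3 arrays of lowest brightness. Its means were 0.51 ± 0.05 at day 1, 0.54 ± 0.05 on the day 4 arrays, 0.57 ± 0.07 at day 7, 0.61 ± 0.05 at day 14 (SD, n = 5 each) and 0.67 ± 0.03 at day 42 (SD, n = 4). Its day 42 arrays, from 0.63 to 0.70, lay above its day 1 arrays, from 0.45 to 0.58, of which the 2 dim arrays gave the lowest values. How often other pairs of miRNAs separate these ages in this way was not counted. Since the probes of this pair may share signal, the separation is not read as a result about age.

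A list of 18 miRNAs that act in muscle but are also made in many other tissues was set beside the members, and all 18 were tested. Between day 42 and day 1, 14 of the 18 were called, 8 higher and 6 lower, against 61.8% of all tested miRNAs, with a list median of 0.06 against -0.35 over all. Of the 8 that rose, miR-29a rose most, by 3.82 ± 0.24. With it rose miR-22, abundant in heart and skeletal muscle, by 1.39 ± 0.14, miR-26a by 0.68 ± 0.13 and miR-30a by 0.87 ± 0.19. The rest of the 8 were miR-23a, miR-24, miR-27a and miR-27b, from 0.36 to 0.76. Among the 6 that fell were miR-322 at -1.76 ± 0.19 and miR-503 at -1.80 ± 0.37, which come from one cluster and slow the cell cycle of myoblasts. Another was miR-214, made with miR-199a-3p in mesenchymal cells, at -2.19 ± 0.35. The rest of the 6 were miR-675-3p at -3.02 ± 0.15, miR-181b at -1.05 ± 0.22 and miR-199a-3p at -0.78 ± 0.13. The intron miRNA of Ppargc1b, miR-378, was at -0.50 ± 0.31 (adjusted p = 0.156 by limma) and miR-486, made in muscle and in red blood cells, at 0.44 ± 0.27 (adjusted p = 0.166).

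In the shorter steps the list of 18 had 1 called between day 4 and day 1 and 1 between day 7 and day 4, which was miR-675-3p, processed from the H19 transcript, lower both times, where 1.55% and 0.311% of all tested miRNAs were called. Between day 14 and day 7 it had 9, 4 higher and 5 lower, where 31.4% of all were called. Between day 42 and day 14 it had 7, 2 higher and 5 lower, a share near the 32.6% of all. On day 1 replicate 2 the list had a median of 0.29 against the other day 1 arrays, with 12 of 18 above 0 and a largest value of 1.64, below the smallest value of any of the 6 raised members, 4.19. On day 7 replicate 5 its median was 0.05, with 11 of 18 above 0.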

How the data were processed

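The array files hold spot intensity values, background-subtracted by the authors with Agilent Feature Extraction 10.7.1.1, per the file headers. Per the labels, 100 ng of total RNA was labelled with Cy3. The table deposited for all arrays gives log2 values of 672 names, of which 650 matched. Its columns share a median of 2.41 and follow the log2 signals of their arrays (Pearson r of at least 0.994), while its further steps are not given in the sources used here. It served as an alternative.

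Spots of a probe were averaged without the 319 to 523 outlier spots per array, none saturated, and probes of a miRNA were summed over 1857 probes. Each array was divided by its 75th percentile over the 228 miRNAs that all arrays detected, and multiplied by the geometric mean of these percentiles, 2248. The floor was 7.24. Tests were made on the 322 miRNAs that all arrays of some age detected, using limma 3.58.1 (R 4.3.3) over all 24 arrays, two-sided, with Benjamini-Hochberg adjustment. The number of arrays limits the precision. The code was tested on simulated data.

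The text names the 7 members, their further arms and the 5 tested miRNAs most correlated with each tested member. Of a list of 18 it names those called between day 42 and day 1. Names beside members on single arrays follow from their ranks. Members and lists were chosen with earlier results of these data known. The alternatives were other scalings, normexp with an offset of 50 on the median spot signal (mean signals were not used here), the deposited table, brightness as a covariate, slide as a block (3 slides of 8 arrays, each with all 5 ages), the replicate number as a block, another detection filter, dim arrays left out and each array left out in turn.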

Additional observations from a re-analysis of the deposited data

Results flagged for a closer look

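In 5 of the 29 sets of arrays of a single age that were examined, 1 array lay far from the others by Dixon's criterion. Chance meets it in about 1 of 20 sets of unbounded values, but in 3 of the 5 the other 4 arrays were all at the floor, where any value above the floor meets it. In the day 1 sets of miR-499 and miR-208a all but 1 of the other arrays were at the floor too. This rate therefore holds for none of the 5. On the log2 scale miR-499 was at 9.19 on day 1 replicate 2, with the other day 1 arrays between 2.86 and 4.45. On the same array miR-208a was at 7.18, with the others between 2.86 and 3.39. The value of miR-206 on day 7 replicate 5 was 6.49, with the other 4 at the floor of 2.86. The remaining pair lay barely above the floor, again with the other 4 arrays at it. These were miR-206 at 2.98 on day 4 replicate 1, where it was not detected, and miR-208a at 3.38 on day 14 replicate 3, where it was. In miR-1, miR-133a, miR-133b and miR-208b day 1 replicate 2 was the highest array of its age too, but did not meet the criterion.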

How the results depend on the processing

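Of the values of the 4 tested members under the alternatives other than leaving out 1 array, 276 kept direction and side of the threshold, 23 changed sign, 7 passed the threshold, 4 lost it and 14 moved by more than the spread between arrays. The cause of these changes was not tested. Day 42 against day 1 became -0.036 for miR-1, -0.54 for miR-133a and -0.22 for miR-133b with normexp background correction, -1.58, -0.85 and -0.71 in the same order with brightness as a covariate, and -0.97, -0.85 and -0.73 without the dim arrays. For miR-208b the call was lost at -1.59 where scaling took in every name, at -1.23 after quantile normalization, at -1.28 on unscaled arrays and at -1.11 in the authors' deposited table. Day 42 against day 14 became 0.17 for miR-133a and 0.22 for miR-133b with scaling over all names, 0.13 and 0.18 with quantile normalization and 0.10 and 0.16 in the authors' deposited table, and 0.042 for miR-133b with brightness as a covariate. For miR-208b it was called at -1.88 with slide as a block and at -1.53 without the dim arrays and day 1 replicate 2. Day 7 against day 4 became -0.14 for miR-1, -0.20 for miR-133a, -0.17 for miR-133b and -0.085 for miR-208b with brightness as a covariate, and -0.15 for miR-208b with normexp. Day 14 against day 7 became 0.29 for miR-208b with normexp and 0.037 in the authors' deposited table. The adjusted p of miR-208b over the 5 ages was 0.0406 with normexp, 0.00371 with brightness as a covariate, 0.0200 with slide as a block, 0.00359 without the dim arrays and 0.000104 without these and day 1 replicate 2. Within slides, day 42 against day 1 was 3.66, 2.16, 2.32 and -0.72 on slide 1 and -3.86, -4.04, -3.88 and -5.95 on slide 2, where day 1 replicate 2 is the day 1 array, for miR-1, miR-133a, miR-133b and miR-208b in this order. In the same order day 4 against day 1 was -5.07, -5.01, -4.99 and -4.23 on slide 2, and day 42 against day 14 was -2.94 for miR-1 and -1.49 for miR-133a on slide 3.

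Leaving out 1 array at a time, 549 member values kept direction and side of the threshold, 18 changed sign and 9 passed the threshold, 8 of these without day 1 replicate 2. Day 42 against day 1 ran from 0.073 to 2.13 for miR-1, from -0.15 to 1.44 for miR-133a, from -0.0087 to 1.60 for miR-133b and from -2.82 to -1.25 for miR-208b. The highest values came without day 1 replicate 2, and those under 0 for miR-133a without day 1 replicates 4 or 5 and for miR-133b without replicate 5. Day 4 against day 1 ran from -1.18 to 0.88, -1.13 to 0.46, -1.12 to 0.48 and -1.32 to 0.24 in the same order. Day 7 against day 4 ran from -0.083 to 0.57 for miR-133a and from -0.068 to 0.62 for miR-133b, negative without day 7 replicate 5. Day 42 against day 14 ran from -0.76 to 0.12 for miR-1, -0.41 to 0.17 for miR-133a, -0.35 to 0.21 for miR-133b and -1.78 to -1.28 for miR-208b, with positive values when replicate 3 or 5 of day 14, or replicate 3 or 4 of day 42, was absent. The adjusted p over the 5 ages ran from 0.0252 to 0.715 for miR-1, 0.0409 to 0.775 for miR-133a, 0.0258 to 0.715 for miR-133b and 0.00136 to 0.222 for miR-208b, which was also called without day 1 replicate 4 (0.0168).

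The numbers of all tested miRNAs called moved too. Between day 4 and day 1, 5 were called, against 8 with quantile normalization, 3 with no scaling, 2 with normexp, 28 with brightness as a covariate, 9 among those detected on at least 1 array, 0 without the dim arrays and day 1 replicate 2, and 3 to 12 without 1 array. Between day 7 and day 4 it was 1, against 0 with quantile normalization, no scaling, normexp and the authors' deposited table. Between day 14 and day 7 the 101 called became 156 with scaling over all names, 153 with brightness as a covariate and 9 with normexp. Between day 42 and day 14 the 105 became 65 with no scaling and 22 with normexp, and over the 5 ages the 211 became 93 with normexp. The replicate numbers did not pair the arrays (median correlation per number from -0.13 to 0.35, with 2 of 24 arrays most like one of their own number). With the replicate block the count for day 42 against day 1 was 193, against 199, and miR-208b was at -2.32. The limit of signal over background touches miR-208b at day 42, miR-206, miR-208a and miR-499 most.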
